A study of Mus musculus with 9 samples.

Results

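DNA replication and nucleotide synthesis genes were examined in cultured mouse NPK prostate cancer cells after silencing of Nsd2 and after treatment with MCTP compounds. The 49 members were taken by symbol for their known roles in copying DNA, in making its building blocks, or in E2F control of these genes. The choice was made with earlier results of these data known, so shares of members beside those of all genes are descriptions only. All 49 were found among the 12842 genes of the deposited table, and all 49 passed the filter on low values described below. They fall into 9 roles, which set the order of the account.

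Before a cell enters S phase, the origin recognition complex marks the sites where copying can start, and Cdc6 and Cdt1 load the ring of Mcm2 to Mcm7 onto them. Cdc45 and the GINS proteins turn that ring into an active helicase, polymerases copy the opened strands from primers, and enzymes of nucleotide synthesis keep the supply of deoxynucleotides. Most of these genes are transcribed in late G1 and S phase under E2F factors, so they are widely read as markers of proliferating cells, tumor cells included.

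NPK cells were isolated by the authors from lung metastases of NPK mice, a model of metastatic prostate cancer. Every group came from these cells and differed in what was done to them in culture. RNA-seq of polyadenylated RNA was compared between 3 libraries of control cells, 3 of cells with shRNA against Nsd2 (shNsd2) and 3 of cells given MCTP compounds. Nsd2 encodes a histone methyltransferase, and the study uses MCTP-39 as a putative inhibitor of it. Its authors name possible unknown metabolites and a possible lack of specificity as caveats to concluding that the compound acts through NSD2. MCTP libraries are numbered 39, 40 and 41 in their labels, and the study names number 39 only, so that the MCTP group may hold 3 compounds with 1 library each. All 3 shNsd2 libraries are titled Nsd2, whereas their source label carries Nsd2, Nsd3 and Nsd4. Not given for these libraries are dose, duration, vehicle, the shRNA used, and whether control cells carried a control shRNA. For its silencing work in general, the study states a lentiviral shRNA against Luciferase as control, and for MCTP-39 in a human cell line DMSO as vehicle. The labels also do not say that replicates came from separate cultures, so p-values measure only the spread between these libraries.

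Values are the deposited log2 expression values, between 1.63 and 18.47, and counts were not used here, so sequencing depth is unknown and precision was judged from the replicates. Whether they are scaled to gene length is not stated, so the levels of members are compared between libraries and not with each other. Sums over marker genes may depend on gene length as well. The transform is not named, and it may understate changes of weakly expressed genes. Testing required a value above 3.78 in 3 or more of the 6 libraries compared. A gene is said to have risen or fallen, or to have been called, where limma's Benjamini-Hochberg adjusted p over all genes tested was below 0.05. In the text, a log2 fold change is given with its standard error (SE), and n is 3 libraries for each group.

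Replicates within a group correlated across genes at Pearson 0.9989 to 0.9998 (control), 0.9994 to 0.9998 (shNsd2) and 0.9964 to 0.9995 (MCTP), and no pair held identical values. The library MCTP 2 stood farthest from its own group, with a median absolute deviation from the group mean of 0.0895 over all genes, against 0.0221 to 0.0717 in the other 8 libraries. The labelled cell type was checked against markers. Keratins of simple epithelium were present, with mean control log2 values of 16.28 for Krt8 and 15.38 for Krt18, and Cdh1 was at 11.77. Epcam was near the floor at 3.55, and Krt5 had no row in the table. The basal keratin Krt14 rose with both treatments, from a control mean of 8.91 to 9.69 with shNsd2 and 10.09 with MCTP (adjusted p = 2.22e-05 and 0.000274, limma). Cdh1 fell with both, by -0.20 with shNsd2 and -0.34 with MCTP (adjusted p = 0.00368 and 0.00325, limma). Krt8 (-0.21) and Krt19 (-0.34) fell and Krt7 (0.22) rose with shNsd2, and Krt19 rose with MCTP (0.37). Of genes of prostate epithelium, Hoxb13 (10.28) and Tmprss2 (6.89) were present, while Pbsn had no row.

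Nsd2 is listed under its earlier symbol Whsc1 (ENSMUSG00000057406.8; chr5:33820725-33897975 on the + strand of GRCm38). Its log2 level was 12.48, 12.43 and 12.42 in control, 11.56, 11.61 and 11.68 in shNsd2, and 12.15, 12.21 and 12.07 in MCTP libraries. The groups did not overlap, with shNsd2 lowest, MCTP between and control highest. The log2 fold change was -0.83 with shNsd2 (SE 0.041, adjusted p = 2.26e-06, limma) and -0.30 with MCTP (SE 0.054, adjusted p = 0.00562, limma). Nsd2 was lower in shNsd2 than in MCTP libraries by a log2 difference of -0.53 (SE 0.056, adjusted p = 4.24e-04, limma). The exact two-sided permutation test gave p = 0.1 for each of these, the smallest that 3 libraries against 3 allow.

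With shNsd2, replication genes rose far more often than they fell. Of the 49 members, 22 rose and 2 fell, where 47.8% of the 12205 genes tested were called, 23.1% higher and 24.8% lower. All 3 shNsd2 libraries lay above all 3 control libraries for 26 members and below them for 2, where 57.2% of all genes had separate groups, 28.1% above and 29.1% below. The median log2 fold change of the members was 0.11, against 0.0020 for all genes tested. Changes were small: the called rises ran from 7.58% to 31.0% on the linear scale, led by Fen1, E2f2, Orc2, Pola2 and Mcm5. In bulk RNA, fewer cells of a kind and less RNA per cell cannot be told apart. Over all genes, 2815 rose and 3021 fell, and the balance moved with scaling, to 3101 and 2779 under quantile normalization and 3132 and 2686 under median centring, while the 24 members kept their calls under both. Of the 24 calls, 16 held when each of the 6 libraries was left out in turn, and those of Mcm3, Gins1, Orc1, Rpa1, Rpa2, Pole, Pold3 and Gins2 did not.

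With MCTP, the same genes fell or were not called. None of the 49 members rose in limma (0, also at an unadjusted p below 0.05) and 19 fell, where 35.2% of the 12216 genes tested were called, 18.0% higher and 17.2% lower. All 3 MCTP libraries lay below all 3 control libraries for 27 members and above them for 1 (Rrm2, named after its values were seen), where 50.6% of all genes had separate groups, 24.8% below and 25.8% above. The median log2 fold change of the members was -0.15, against -0.0062 for all genes tested. The called falls ran from -11.7% to -39.7%, led by Pola1, Pold3, Orc3, Pcna and Rpa3. Over all genes, 2198 rose and 2107 fell, and 2525 and 1709 did so under median centring. The count of members moved with single libraries, as did that of all genes. Without control 1, 2 or 3, 9, 7 and 10 members fell, beside 2366, 2162 and 2456 of all genes called. Without MCTP 1, 2 or 3, 7, 25 and 15 members fell, beside 2046, 7384 and 2842 of all genes called. Mcm4, Mcm6, Pold3, Pcna and Rpa3 were called whichever library was left out, and 11 members were called with the library labelled 39 as the whole MCTP group, beside 4628 of all genes (4305 with all 3 libraries). That setting was chosen after seeing the data, and its MCTP group of 1 library takes its spread from the controls.

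The shNsd2 and MCTP comparisons share their control libraries, so the difference between both treatments was tested directly between shNsd2 and MCTP libraries, where the controls drop out. In that test 37 of the 49 members were higher in shNsd2 libraries, where 43.2% of the 12217 genes tested were called, 20.6% higher and 22.6% lower. No member was lower in limma (0; at an unadjusted p below 0.05 there was 1, Rrm2). All shNsd2 libraries lay above all MCTP libraries for 40 members and below them for 1, where 55.0% of all genes had separate groups, 26.5% above and 28.5% below. The median log2 difference was 0.28, against 0.0072 for all genes, and the largest was 0.64 for Pola1. The 37 calls covered every role, from 6 of 6 helicase subunits to 1 of 3 E2F factors. With each library left out in turn, 25 of the 37 calls held.

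**Figure D1:**
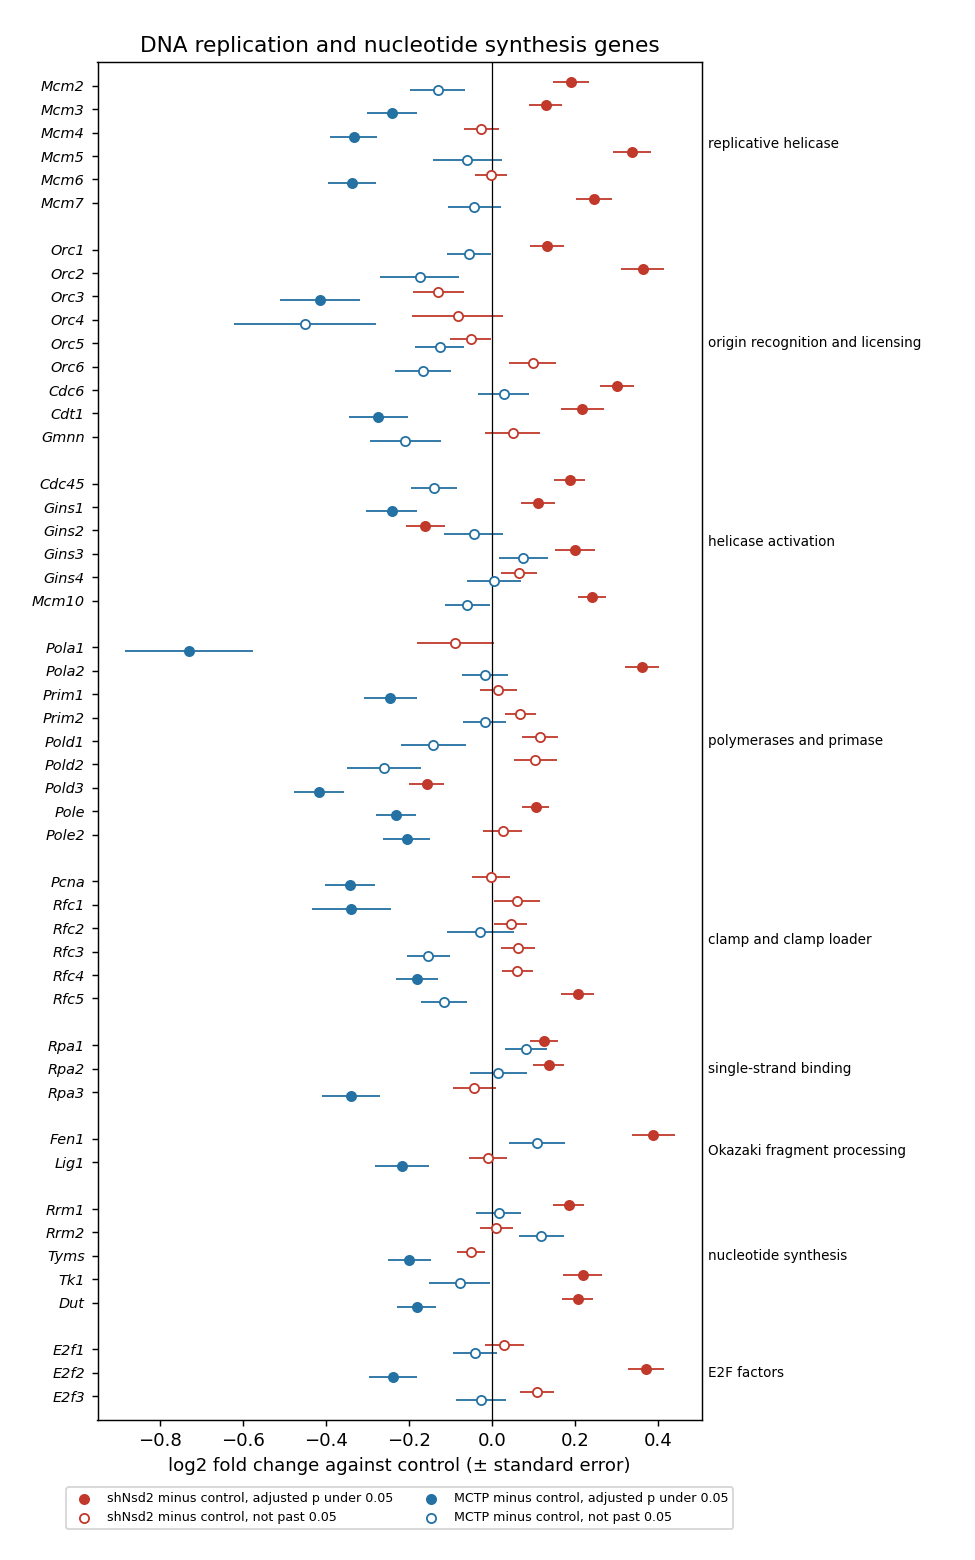
Log2 fold change against control with its standard error for the 49 members, ordered by role, with shNsd2 in red and MCTP in blue and filled points where the adjusted p from limma was below 0.05. Red points lie mostly right of zero (22 called higher, 2 lower) and blue points mostly left of it (19 called lower, 0 higher).

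The ring of Mcm2 to Mcm7 is the motor that unwinds DNA ahead of the polymerases. With shNsd2, Mcm2, Mcm3, Mcm5 and Mcm7 rose (4 of 6), and with MCTP, Mcm3, Mcm4 and Mcm6 fell (3 of 6). All 6 subunits were higher in shNsd2 than in MCTP libraries, by log2 differences from 0.29 to 0.40. Mcm5 was at 12.73, 12.79 and 12.71 in control, 13.14, 13.10 and 12.99 in shNsd2 and 12.73, 12.49 and 12.82 in MCTP libraries. Its 3 shNsd2 libraries stood above every other library, while MCTP and control overlapped. The log2 fold change was 0.34 with shNsd2 (SE 0.046, adjusted p = 0.000434, limma) and -0.059 with MCTP (adjusted p = 0.596, limma). Mcm7 had the same order, at 12.89, 12.89 and 12.82 in control, 13.14, 13.16 and 13.03 in shNsd2 and 12.88, 12.71 and 12.89 in MCTP libraries. Its rise with shNsd2 was 0.25 (SE 0.043, adjusted p = 0.00179, limma), with MCTP and control libraries again overlapping.

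Mcm6 gave another picture, with 13.07, 13.15 and 13.05 in control, 13.10, 13.08 and 13.08 in shNsd2 and 12.83, 12.69 and 12.73 in MCTP libraries. The shNsd2 libraries fell inside the control range, and all 3 MCTP libraries lay below both. The log2 fold change was -0.34 with MCTP (SE 0.058, adjusted p = 0.00471, limma) and -0.0016 with shNsd2 (adjusted p = 0.975, limma). Mcm4 was similar in value, at -0.33 with MCTP (adjusted p = 0.00454, limma) and -0.025 with shNsd2 (adjusted p = 0.644, limma). Mcm3 changed in both directions: its level was 12.80, 12.88 and 12.81 in control, 13.00, 12.97 and 12.90 in shNsd2 and 12.65, 12.48 and 12.63 in MCTP libraries. No group overlapped another, with shNsd2 highest and MCTP lowest. Mcm3 changed by 0.13 with shNsd2 (SE 0.039, adjusted p = 0.0230, limma) and by -0.24 with MCTP (SE 0.06, adjusted p = 0.0193, limma). Mcm2 rose by 0.19 with shNsd2 (adjusted p = 0.00650, limma), and its value with MCTP was -0.13 (adjusted p = 0.155, limma). Mcm7 shares 7.25% of its exonic bases with Ap4m1 on the other strand, and strand-specific counting is not stated, so reads from that stretch cannot be told apart.

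Origin recognition and licensing comprised Orc1 to Orc6, which bind origins, the loaders Cdc6 and Cdt1, and Gmnn, which holds Cdt1 in check after S phase has begun. Orc1, Orc2, Cdc6 and Cdt1 rose with shNsd2 (4 of 9), Orc3 and Cdt1 fell with MCTP (2 of 9), and 7 of 9 were higher in shNsd2 than in MCTP libraries. Orc2 was at 9.94, 9.87 and 9.81 in control, 10.21, 10.17 and 10.33 in shNsd2 and 9.68, 9.89 and 9.52 in MCTP libraries. Its shNsd2 libraries were the highest, and MCTP 2 lay within the control range while MCTP 1 and MCTP 3 lay below it. Orc2 rose by 0.36 with shNsd2 (SE 0.053, adjusted p = 0.000629, limma), and shNsd2 exceeded MCTP by 0.54 (SE 0.096, adjusted p = 0.00404, limma). Of its exonic bases, 29.8% overlap Nif3l1 on the opposite strand, which itself rose by 0.23 with shNsd2 (adjusted p = 0.00556, limma), so the value of Orc2 is uncertain, and Gm12743 covers 10.8% of Orc1 in the same way. Orc3 was at 10.05, 9.92 and 9.87 in control, 9.79, 9.74 and 9.92 in shNsd2 and 9.51, 9.72 and 9.37 in MCTP libraries. All MCTP libraries lay below all controls, MCTP 2 nearest to them, and shNsd2 overlapped control. The fall with MCTP was -0.41 (SE 0.097, adjusted p = 0.0155, limma).

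Cdc6, the ATPase that joins the origin recognition complex to load the ring, was at 10.34, 10.34 and 10.25 in control, 10.64, 10.63 and 10.56 in shNsd2 and 10.39, 10.24 and 10.39 in MCTP libraries. All shNsd2 libraries were above all others, and MCTP spanned the control range. It rose by 0.30 with shNsd2 (SE 0.042, adjusted p = 0.000487, limma). Its partner Cdt1 was at 11.24, 11.39 and 11.39 in control, 11.61, 11.60 and 11.48 in shNsd2 and 11.12, 10.95 and 11.14 in MCTP libraries. The order was the same as for Mcm3, with no overlap between any groups. Cdt1 rose by 0.22 with shNsd2 (SE 0.052, adjusted p = 0.00809, limma) and changed by -0.27 with MCTP (SE 0.071, adjusted p = 0.0228, limma). Gmnn passed the threshold against control in neither comparison, at 0.05 with shNsd2 (adjusted p = 0.566, limma) and -0.21 with MCTP (adjusted p = 0.0915, limma). Orc4 had a lower estimate with MCTP than Orc3 (-0.45, adjusted p = 0.0740, limma) but was not called, and its MCTP libraries had a standard deviation of 0.34.

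Helicase activation needs Cdc45 and the GINS complex (Gins1 to Gins4), which join the ring, and Mcm10, which helps to start it. Cdc45, Gins1, Gins3 and Mcm10 rose with shNsd2 (4 of 6) and Gins2 fell, while Gins1 fell with MCTP (1 of 6). Mcm10 was at 10.36, 10.31 and 10.34 in control, 10.60, 10.58 and 10.57 in shNsd2 and 10.31, 10.20 and 10.33 in MCTP libraries. Only the shNsd2 libraries stood clear of the controls. The rise was 0.24 (SE 0.035, adjusted p = 0.000574, limma). Gins1 was at 9.20, 9.12 and 9.15 in control, 9.25, 9.29 and 9.26 in shNsd2 and 8.96, 8.97 and 8.81 in MCTP libraries. Its 3 groups were separate, with the shNsd2 libraries just above the controls and the MCTP libraries farther below. The log2 fold changes of Gins1 were 0.11 with shNsd2 (SE 0.04, adjusted p = 0.0485, limma) and -0.24 with MCTP (SE 0.062, adjusted p = 0.0220, limma).

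Subunits of the same complex differed in direction. Gins2 fell with shNsd2 (-0.16, adjusted p = 0.0215, limma), Gins3 rose (0.20, adjusted p = 0.00809, limma), and Gins4 passed the threshold in no comparison (0.065 with shNsd2, adjusted p = 0.239, limma). The call of Gins2 was lost without control 2 (2 members fell with all libraries, 1 without control 2). Gse1 on the opposite strand covers 67.3% of the exonic bases of Gins2 and rose with shNsd2 (0.20, adjusted p = 0.00839, limma), so the reads of Gins2 cannot be told apart from those of Gse1 in unstranded counts.

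DNA polymerase alpha (Pola1 and Pola2) with primase (Prim1 and Prim2) lays down primers, delta (Pold1, Pold2, Pold3) extends them on the lagging strand, and epsilon (Pole, Pole2) copies the leading strand. Pola2 and Pole rose with shNsd2 and Pold3 fell, while Pola1, Prim1, Pold3, Pole and Pole2 fell with MCTP (5 of 9). Both subunits of polymerase alpha were higher in shNsd2 than in MCTP libraries, but against control the call came from a different treatment in each. The catalytic subunit Pola1 was at 10.38, 10.20 and 10.02 in control, 10.08, 10 and 10.26 in shNsd2 and 9.34, 9.82 and 9.26 in MCTP libraries. MCTP 1 and MCTP 3 lay far below every other library, MCTP 2 lay between them and the controls, and shNsd2 overlapped control. Pola1 changed by -0.73 with MCTP (SE 0.15, adjusted p = 0.0104, limma), the largest change of any member against control, and by -0.088 with shNsd2 (SE 0.093, adjusted p = 0.462, limma). Its accessory subunit Pola2 was at 10.88, 10.87 and 10.82 in control, 11.26, 11.24 and 11.15 in shNsd2 and 10.87, 10.76 and 10.90 in MCTP libraries. There the shNsd2 libraries were the ones apart, and MCTP overlapped control. Pola2 rose by 0.36 with shNsd2 (SE 0.041, adjusted p = 0.000158, limma), and its value with MCTP was -0.016 (adjusted p = 0.834, limma). The sign of that last value turned under quantile normalization, median centring and a correction for GC content.

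Pole, the catalytic subunit of epsilon, was at 11.55, 11.54 and 11.50 in control, 11.61, 11.65 and 11.64 in shNsd2 and 11.35, 11.26 and 11.27 in MCTP libraries. The groups were separate and the spread within each was small. Pole rose by 0.11 with shNsd2 (SE 0.033, adjusted p = 0.0269, limma) and changed by -0.23 with MCTP (SE 0.049, adjusted p = 0.0108, limma). Pold3 was at 10.67, 10.57 and 10.57 in control, 10.42, 10.43 and 10.49 in shNsd2 and 10.25, 10.21 and 10.10 in MCTP libraries. Both treated groups lay below control, MCTP lower than shNsd2. Pold3 changed by -0.16 with shNsd2 (SE 0.042, adjusted p = 0.0143, limma) and by -0.42 with MCTP (SE 0.06, adjusted p = 0.00238, limma). In the direct test, Pold3 in shNsd2 libraries exceeded MCTP by 0.26 (SE 0.055, adjusted p = 0.00825, limma). Pold1 and Pold2 were called against control in neither comparison, with 0.12 and 0.11 for shNsd2 and -0.14 and -0.26 for MCTP, yet both were higher in shNsd2 than in MCTP libraries (adjusted p = 0.0343 and 0.0133, limma). The call of Pold1 was lost under median centring, and that of Pole2 with MCTP under median centring and GC correction.

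The clamp Pcna encircles DNA and holds polymerases on it, and replication factor C (Rfc1 to Rfc5) opens and loads the clamp. Rfc5 rose with shNsd2 (1 of 6), Pcna, Rfc1 and Rfc4 fell with MCTP (3 of 6), and 5 of 6 were higher in shNsd2 than in MCTP libraries. Pcna was at 13.16, 13.06 and 12.99 in control, 13.05, 13.07 and 13.07 in shNsd2 and 12.75, 12.77 and 12.66 in MCTP libraries. The shNsd2 libraries lay inside the control range and all MCTP libraries below it. The log2 fold change was -0.34 with MCTP (SE 0.061, adjusted p = 0.00543, limma) and -0.0018 with shNsd2 (SE 0.045, adjusted p = 0.977, limma). The annotation holds the pseudogenes Pcna-ps1 and Pcna-ps2, and how reads shared with them were counted is not stated. Rfc1, the large subunit of the loader, was at 11.23, 11.12 and 11.02 in control, 11.14, 11.16 and 11.24 in shNsd2 and 10.70, 10.99 and 10.67 in MCTP libraries. MCTP 2 was close to the lowest control and the other MCTP libraries were well below. Rfc1 changed by -0.34 with MCTP (SE 0.096, adjusted p = 0.0296, limma). Rfc5 was at 11.08, 11.08 and 11.03 in control, 11.30, 11.31 and 11.20 in shNsd2 and 11.01, 10.87 and 10.97 in MCTP libraries. Its groups did not overlap, but only the rise with shNsd2 passed the test (0.21, SE 0.039, adjusted p = 0.00251, limma), with -0.12 for MCTP (adjusted p = 0.130, limma). The fall of Rfc4 with MCTP was not called under quantile normalization, median centring or GC correction. Opposite-strand genes cover 15.1% of the exonic bases of Rfc2 (Lat2), 12.7% of Rfc4 (Eif4a2) and 10.7% of Rfc5 (Wsb2), where reads cannot be told apart.

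Replication protein A coats single-stranded DNA as a trimer of Rpa1, Rpa2 and Rpa3. Rpa1 and Rpa2 rose with shNsd2 and Rpa3 fell with MCTP, and in the direct test Rpa3 alone (1 of 3) was higher in shNsd2 than in MCTP libraries, with 0.043 for Rpa1 and 0.12 for Rpa2 (adjusted p = 0.510 and 0.192, limma). Rpa2 was at 10.26, 10.28 and 10.25 in control, 10.40, 10.44 and 10.36 in shNsd2 and 10.31, 10.14 and 10.39 in MCTP libraries. The shNsd2 libraries lay just above the controls, and MCTP spread to both sides of them. Rpa2 rose by 0.14 with shNsd2 (SE 0.037, adjusted p = 0.0141, limma). Rpa3 was at 9.47, 9.41 and 9.33 in control, 9.34, 9.32 and 9.43 in shNsd2 and 9.04, 9.17 and 8.98 in MCTP libraries. All MCTP libraries were below all others, and shNsd2 overlapped control. The change with MCTP was -0.34 (SE 0.07, adjusted p = 0.00955, limma), and neither it nor the direct difference was called once libraries were corrected for GC content. The longest annotated Rpa3 transcript is 34.2% GC, the lowest share among the members.

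Fen1 trims the flaps of Okazaki fragments and Lig1 seals the nicks between them. Fen1 rose with shNsd2, Lig1 fell with MCTP, and both were higher in shNsd2 than in MCTP libraries. Fen1 was at 10.95, 10.90 and 10.79 in control, 11.30, 11.30 and 11.20 in shNsd2 and 11.05, 10.88 and 11.03 in MCTP libraries. The shNsd2 libraries exceeded all others, and MCTP overlapped control. The rise of 0.39 (SE 0.051, adjusted p = 0.000355, limma), or 31.0% on the linear scale, was the largest of any member with shNsd2. The antisense gene Gm10143 overlaps 78.8% of the exonic bases of Fen1, so this value is uncertain. Lig1 was at 12.51, 12.57 and 12.45 in control, 12.53, 12.55 and 12.42 in shNsd2 and 12.34, 12.18 and 12.36 in MCTP libraries. Only the MCTP libraries were apart, all below control. Lig1 changed by -0.22 with MCTP (SE 0.065, adjusted p = 0.0358, limma), a call lost under median centring.

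Nucleotide synthesis was represented by Rrm1 and Rrm2, the subunits of ribonucleotide reductase, by Tyms, which makes thymidylate, by Tk1, which salvages thymidine, and by Dut, which removes dUTP. Rrm1, Tk1 and Dut rose with shNsd2 (3 of 5), and Tyms and Dut fell with MCTP (2 of 5). Tk1 was at 12.44, 12.48 and 12.43 in control, 12.74, 12.70 and 12.57 in shNsd2 and 12.44, 12.21 and 12.48 in MCTP libraries. All shNsd2 libraries were above the controls, and MCTP 2 was the lowest library of all. Tk1 rose by 0.22 with shNsd2 (SE 0.046, adjusted p = 0.00449, limma). Tyms was at 11.26, 11.26 and 11.20 in control, 11.21, 11.21 and 11.16 in shNsd2 and 11.09, 10.98 and 11.07 in MCTP libraries. The MCTP libraries were the lowest, and shNsd2 overlapped control. Tyms changed by -0.20 with MCTP (SE 0.052, adjusted p = 0.0226, limma), a call lost under median centring, and the annotation also holds the pseudogene Tyms-ps. Dut was at 11.87, 11.90 and 11.87 in control, 12.14, 12.10 and 12.03 in shNsd2 and 11.74, 11.66 and 11.70 in MCTP libraries. Its groups were separate, shNsd2 highest and MCTP lowest. Dut rose by 0.21 with shNsd2 (SE 0.037, adjusted p = 0.00184, limma) and changed by -0.18 with MCTP (SE 0.047, adjusted p = 0.0219, limma), and the call with MCTP was also lost under median centring.

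Of the ribonucleotide reductase subunits, Rrm1 rose with shNsd2 (0.19, adjusted p = 0.00365, limma). Rrm2, described after its values were seen, was at 14.10, 14.07 and 13.98 in control, 14.05, 14.08 and 14.06 in shNsd2 and 14.16, 14.15 and 14.19 in MCTP libraries. It was the only member whose MCTP libraries all lay above the controls, and it was not called (0.12, adjusted p = 0.119, limma). With all 9 libraries in a single fit the same value reached an adjusted p of 0.0453 (limma), and after GC correction the value was 0.19 (adjusted p = 0.0117, limma).

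Among the E2F factors that activate S phase genes, E2f2 alone was called against control, and in both comparisons. E2f2 was at 9.89, 9.89 and 10.01 in control, 10.30, 10.31 and 10.30 in shNsd2 and 9.72, 9.65 and 9.72 in MCTP libraries. The shNsd2 libraries were nearly equal and stood above every control, and the MCTP libraries were all below. E2f2 rose by 0.37 with shNsd2 (SE 0.043, adjusted p = 0.000198, limma) and changed by -0.24 with MCTP (SE 0.058, adjusted p = 0.0176, limma). The direct difference was 0.61 (SE 0.046, adjusted p = 9.59e-05, limma), the smallest adjusted p of any member in that test. E2f1 gave 0.03 with shNsd2 (adjusted p = 0.629, limma) and -0.04 with MCTP (adjusted p = 0.563, limma), and E2f3 gave 0.11 with shNsd2 (adjusted p = 0.0536, limma) and -0.026 with MCTP (adjusted p = 0.751, limma). Mcm3, Cdt1, Gins1, Pole, Dut and E2f2 were thus the 6 members called higher with shNsd2 and lower with MCTP, beside 1.48% of 12197 genes tested in both comparisons. Without control 2 none of the 6 kept its call with MCTP, and without control 3 none kept both calls. Mcm3, Gins1 and Pole also lost their calls with shNsd2 under no filter, all 9 libraries in a single fit or no trend. In the direct test each of the 6 was called, whichever library was left out.

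**Figure D2:**
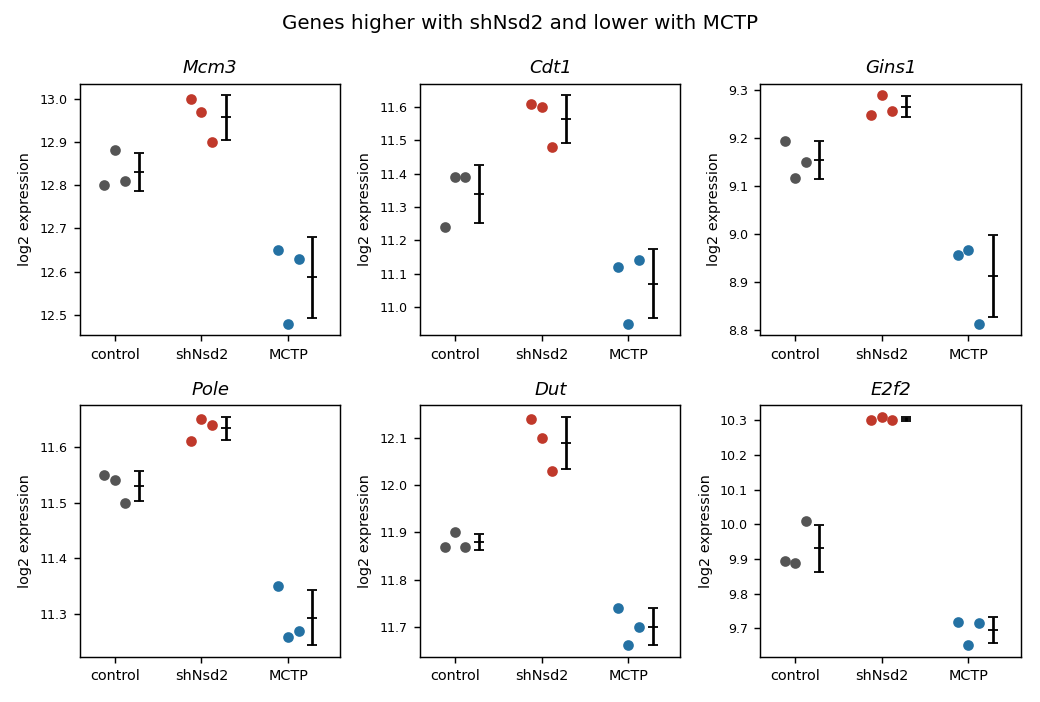
Log2 expression in each of the 9 libraries for the 6 members called higher with shNsd2 and lower with MCTP, with the mean and standard deviation of each group beside the points. Such calls were made for 1.48% of all genes, and none of the 6 members keeps both calls without control 2.

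Single libraries were also compared over all members. The median deviation of the 49 members from the control mean was 0.085, 0.096 and 0.095 in shNsd2 1 to 3 and -0.14, -0.19 and -0.13 in MCTP 1 to 3, against 0.028, 0.0099 and -0.035 in the controls. Every shNsd2 library was above and every MCTP library below all controls on this measure, and MCTP 2 was the lowest. The place of MCTP 2 within its group was not the same for all members. It was, for example, the lowest of the 3 for Mcm5, Tk1 and Tyms and the highest for Orc3, Pola1 and Gmnn. Across the 11940 genes with a known GC content, the log2 fold change with MCTP had a Spearman correlation of 0.469 with GC content, and that with shNsd2 had 0.248 across 11930 genes. These are descriptions across genes, which are not independent replicates and share the same libraries. Over the 49 members the values were 0.258 with MCTP and 0.452 with shNsd2. After a correction of every library for GC content, 28 members rose and 3 fell with shNsd2, beside 3324 and 3359 of all genes (2815 and 3021 before it). With MCTP, 1 member rose and 23 fell, beside 2704 and 2745 of all genes (2198 and 2107 before it). The part of GC content in the members' values was not tested.

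**Figure D3:**
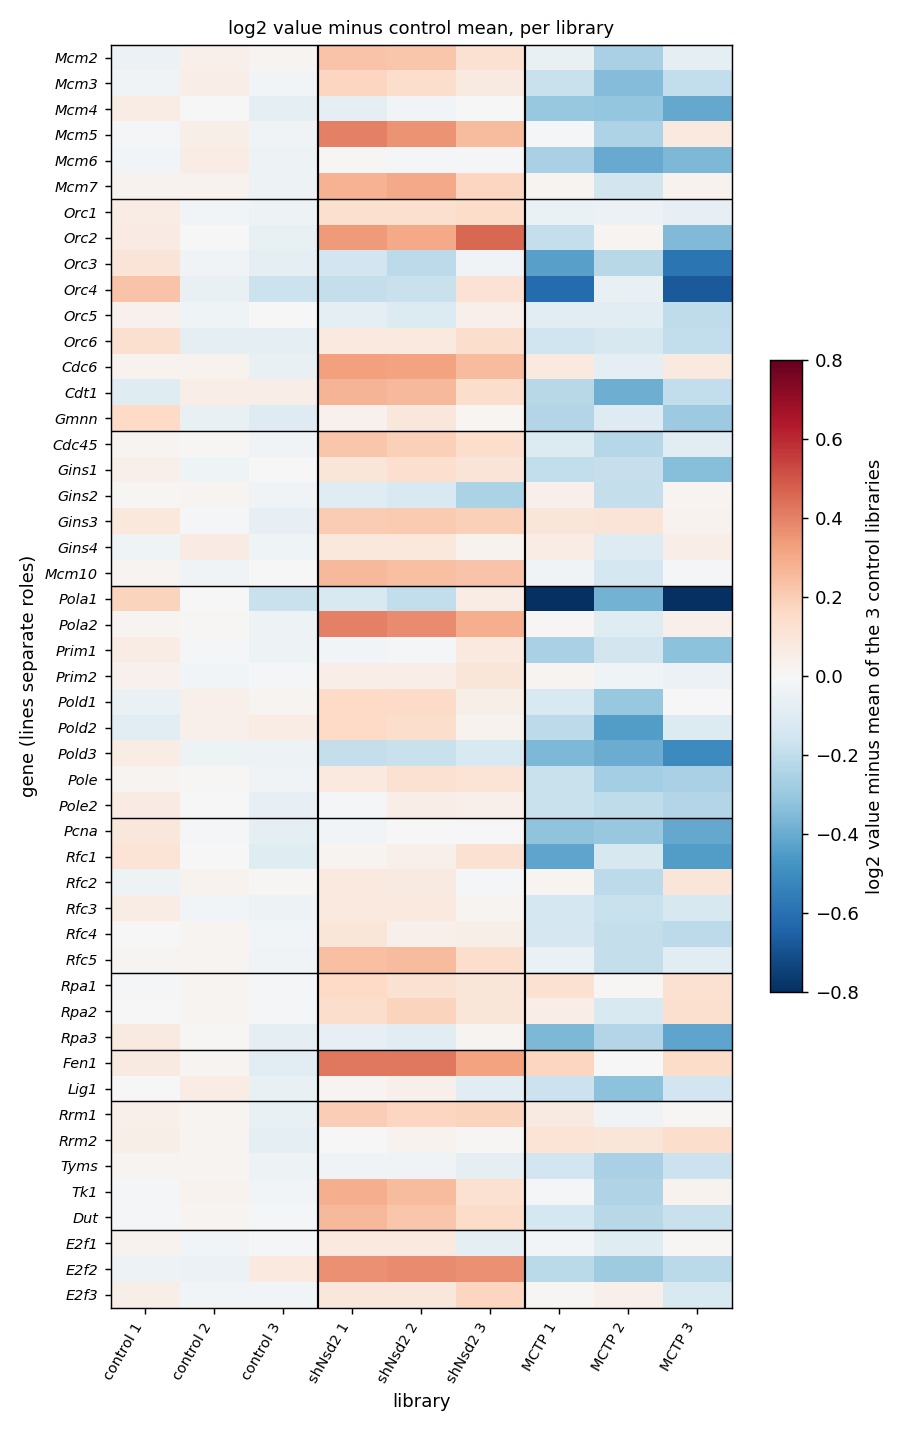
Log2 value minus the mean of the 3 control libraries for each member (rows, separated by role) in each of the 9 libraries (columns), with the darkest colours also standing for values beyond the scale. The shNsd2 columns are mostly red (member medians 0.085 to 0.096) and the MCTP columns mostly blue (-0.19 to -0.13).

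Other genes of DNA replication and of nucleotide supply were read from lists, and their counts stand beside 47.8% of all genes called with shNsd2 (23.1% higher, 24.8% lower) and 35.2% with MCTP (18.0% higher, 17.2% lower). Of 27 further replication factors with a row (Ticrr had none), 8 rose and 4 fell with shNsd2, 0 rose and 13 fell with MCTP, and 20 were higher and 1 lower in shNsd2 than in MCTP libraries. Mtbp, which helps to fire origins, fell with MCTP by -0.89 (SE 0.052, adjusted p = 5.70e-05, limma) and with shNsd2 by -0.18 (adjusted p = 0.00787, limma). The next largest falls with MCTP were those of Cdc7 (-0.47) and Dbf4 (-0.42), the kinase and its activator that start the loaded helicase. With shNsd2, Donson (0.34) and Wdhd1 (0.30), both replisome factors, rose, and Pold4, a small subunit of polymerase delta, fell (-0.47, adjusted p = 0.000460, limma). Further deoxynucleotide supply had 12 genes in 13 rows, since Nme2 is listed in 2, of which 5 rose and 3 fell with shNsd2 and 4 rose and 0 fell with MCTP. Nme1, a nucleoside diphosphate kinase, rose with both treatments (0.46 with shNsd2 and 0.39 with MCTP, adjusted p = 3.03e-05 and 0.00693, limma), and the direct test between them was not passed (adjusted p = 0.452, limma). Nme1 and Nme2 are near copies of each other, and how shared reads were counted is not stated.

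Purine and pyrimidine synthesis had 18 genes, of which 11 rose and 3 fell with shNsd2 and 0 rose and 6 fell with MCTP. Cad, which starts pyrimidine synthesis, rose with shNsd2 by 0.37 (SE 0.046, adjusted p = 0.000308, limma), as did Impdh2 of guanine nucleotide synthesis (0.33), while the adenylosuccinate synthase gene Adssl1 fell (-0.37). With MCTP, Adss (-0.45) and Gmps (-0.41), which act in adenine and guanine nucleotide synthesis, and Prps1 (-0.29), which makes the ribose phosphate donor, fell. Pfas, an enzyme of purine synthesis, differed between shNsd2 and MCTP libraries by 0.47 (SE 0.047, adjusted p = 0.000348, limma). Of 10 other E2F genes and partners, 3 rose and 2 fell with shNsd2, a share near that of all genes, and 1 rose and 4 fell with MCTP, with E2f4 highest with shNsd2 (0.39) and E2f8 lowest with MCTP (-0.47). Of 6 genes of chromatin assembly behind the fork, 4 rose with shNsd2, led by the histone chaperone Asf1b (0.37), and 1 fell with MCTP (Nasp, -0.25), and all 6 were higher in shNsd2 than in MCTP libraries. Of 11 genes of the S phase checkpoint and fork protection (Rad9a had no row), 0 rose and 1 fell with shNsd2 (Wee1, -0.19) and 0 rose and 4 fell with MCTP, led by the checkpoint kinase Chek1 (-0.61, SE 0.16, adjusted p = 0.0222, limma).

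Markers of other cells were read from the same table. Of the leukocyte markers read, Cd68, which other cells also express, had a row, and Ptprc, Csf1r, Lyz2, Adgre1, Cd3e and Itgam had none. Cd68 was at 6.50, 6.51 and 6.60 in control, 6.78, 6.78 and 6.72 in shNsd2 and 7.20, 7.15 and 7.44 in MCTP libraries. It rose with both treatments, by 0.23 with shNsd2 (adjusted p = 0.00227, limma) and 0.73 with MCTP (adjusted p = 0.000688, limma). Of 8 fibroblast markers 4 had a row, their summed linear level was 1934 to 2230 in control, 1722 to 1734 in shNsd2 and 1794 to 1991 in MCTP libraries, and Col3a1 was the most abundant. Of 6 endothelial markers Eng and Cdh5 had a row, with sums of 96.1 to 101.9 in control, 95.96 to 96.6 in shNsd2 and 107.6 to 116.3 in MCTP libraries. The 7 epithelial markers with a row summed to 209000 to 236700 in control, 190100 to 212500 in shNsd2 and 226400 to 290700 in MCTP libraries. Whether a change of cell mixture has a part in the members' values was not tested.

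Promoter letters were read as a feature the members share by function. RefSeq entries for the start of the gene (build GRCm38.p6) were at hand for 41 of the 49 members, and the 250 bases before each start were searched on both strands for the E2F-type letters TTTCGCGC, TTTGGCGC and TTTCCCGC and for CCAAT. No window was trimmed for the counts that follow, so some matches lie inside the gene as annotated. Among these are the E2F-type matches of Cdc6, Mcm7 and Orc1. E2F-type letters stood in the windows of 10 of the 41 members (24.4%), against 3.68% of 8425 genes that were tested with shNsd2. They stood in those of 1.78% of all 27025 genes with an entry and in 1.53% of all 32851 promoters, since a gene can have more than 1. CCAAT stood in the windows of 25 of the 41 (61.0%), against 41.2% of the genes tested, 37.5% of all genes with an entry and 33.8% of all promoters. Of 16 members that rose with shNsd2 and were not called with MCTP, 5 held E2F-type letters, as did 3 of 11 that fell with MCTP and were not called with shNsd2, 0 of 4 members that did both, and 2 of 9 members called in neither comparison. A match describes these letters only. Shown are Mcm5, which rose with shNsd2, Mcm6, which fell with MCTP, and Mcm3 and E2f2, which did both, each 5′ to 3′ along its gene, without bases that an annotation places inside a gene, which shortens Mcm5 to 209 bases. Capitals mark E2F-type letters and CCAAT, read on either strand, and TTTCGCGC overlaps TTTGGCGC on the opposite strand in Mcm5 and in Mcm6. Mcm5 lies at chr8:75109259-75109467 on the + strand, Mcm6 at chr1:128359706-128359955 on the - strand, Mcm3 at chr1:20820313-20820562 on the - strand and E2f2 at chr4:136172024-136172273 on the + strand.
Mcm5: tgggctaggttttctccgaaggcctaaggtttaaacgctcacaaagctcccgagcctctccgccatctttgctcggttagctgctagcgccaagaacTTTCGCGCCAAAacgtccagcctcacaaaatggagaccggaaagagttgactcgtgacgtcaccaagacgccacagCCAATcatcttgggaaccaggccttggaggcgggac
Mcm6: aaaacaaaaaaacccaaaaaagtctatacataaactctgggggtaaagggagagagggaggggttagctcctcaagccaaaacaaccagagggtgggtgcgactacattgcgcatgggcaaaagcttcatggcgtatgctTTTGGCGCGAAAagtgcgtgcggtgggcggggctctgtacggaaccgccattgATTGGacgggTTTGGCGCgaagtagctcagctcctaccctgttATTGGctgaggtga
Mcm3: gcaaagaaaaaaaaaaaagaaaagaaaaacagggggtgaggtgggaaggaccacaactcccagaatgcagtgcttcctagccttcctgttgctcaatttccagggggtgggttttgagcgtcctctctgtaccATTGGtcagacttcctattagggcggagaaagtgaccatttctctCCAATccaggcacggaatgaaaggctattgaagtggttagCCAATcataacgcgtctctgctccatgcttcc
E2f2: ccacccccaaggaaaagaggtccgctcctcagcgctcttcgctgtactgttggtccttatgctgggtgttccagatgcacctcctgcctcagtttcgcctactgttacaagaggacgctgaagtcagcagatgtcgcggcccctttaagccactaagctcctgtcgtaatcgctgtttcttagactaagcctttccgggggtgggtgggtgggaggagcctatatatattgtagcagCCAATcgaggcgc
Mcm6 held 3 matches to E2F-type letters and 2 to CCAAT, and the shortened Mcm5 held 2 and 1. Mcm3 held 0 and 3, and E2f2 held 0 and 1, so the member with the smallest adjusted p between treatments had no E2F-type letters in this window.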

How the data were processed

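Polyadenylated RNA of 9 samples of NPK cells (3 control, 3 shNsd2, 3 MCTP, grouped by title) was sequenced by the authors, who deposited 1 table of log2 expression values for 12842 genes, with libraries already scaled to each other. The transform is not named in the table, and the paper states DESeq2 normalization and variance stabilization for its tumor profiles. The submitters' processing notes name mm9, bcl2fastq 1.8.4, TopHat, Cufflinks, DESeq and DESeq2 without their roles, and strand-specific counting is not stated. Of its 12 value columns 9 were used, since the other 3 match no sample in the labels. Raw files and counts were not used here, so depth is unknown and no count model was run.

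Genes with 3 or more of 6 libraries above a floor of 3.78 (the median among the smallest 10% of values) were compared in limma 3.58.1 under R 4.3.3 (eBayes, trend on, Benjamini-Hochberg over all genes tested, threshold 0.05), using the 6 libraries of each comparison. The procedure was tested on simulated data. Members and lists were chosen with earlier results of these data known. Values in every library are given for Nsd2, for called members among the 8 largest changes of each comparison, for the largest called change of each role, and for members called in opposite directions. Other lists are given by counts with up to 3 called genes each. Genes outside this rule are named as such or given by value only. Alternatives were no filter, all 9 libraries in a single fit, the replicate number as a block, each library left out, quantile normalization, median centring, no trend, and correction for transcript GC content (lowess, span 0.3; 12513 genes with a value), with and without the block. The reduction of the MCTP group to the library labelled 39 was added after seeing the data. Positions, exon overlaps, GC content and pseudogenes are from GENCODE M21 (GRCm38), which is not the build in the notes, and promoter sequences from RefSeq (GRCm38.p6). Python 3.11.15 with matplotlib 3.10.9 was used for figures.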

Additional observations from a re-analysis of the deposited data

Results flagged for a closer look

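The effects of shNsd2 and MCTP on the same cells differed by the direct limma test between both groups of 3 libraries, in which the control libraries drop out. Each value is a log2 difference, shNsd2 minus MCTP, unless it is a count of genes past an adjusted p of 0.05. Of 49 members, 37 were higher in shNsd2 libraries. Among the genes that the naming rule picks for this comparison, Pola1 (0.64) and E2f2 (0.61) differed most, followed by Orc2 (0.54), Cdt1 (0.49), Rfc1 (0.40), Mcm5 (0.40), Dut (0.39) and Pola2 (0.38). Gins1 (0.35), Rpa3 (0.30) and Fen1 (0.28) complete the members so picked. Mcm3 (0.37) and Pole (0.34) were picked as members called in opposite directions against control. The call of Rpa3 was lost under GC correction and that of Pola1 without MCTP 1. The adjusted p from limma ran from 9.59e-05 for E2f2 to 0.0110 for Pola1.

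The same direct test differed for genes on the other lists, beside 20.6% of all genes higher and 22.6% lower in shNsd2 libraries. Higher were 20 of 27 further replication factors, with Mtbp at 0.71, a gene that fell with both treatments (-0.18 and -0.89), 2 of 13 entries of further deoxynucleotide supply, with Dctd at 0.49, a share below that of all genes, and 10 of 18 genes of purine and pyrimidine synthesis, with Pfas at 0.47. So were 4 of 10 other E2F genes and partners, with Rbl1 at 0.55, 6 of 6 genes of chromatin assembly, with Slbp at 0.37, and 7 of 11 of the S phase checkpoint and fork protection, with Chek1 at 0.61. The list of proliferation and mitosis gave 4 of 10, with Bub1 at 0.59, and that of G1/S cyclins and inhibitors 2 of 7. Lower in shNsd2 libraries were the inhibitor gene Cdkn1a (-0.71), Pold4 of the further replication factors (-0.47), Adssl1 of purine synthesis (-0.45) and E2f6 (-0.25).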

How the results depend on the processing

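No called value of a named gene changed sign under any setting. Over these genes and settings 1854 values kept their call, and 234 kept their sign but were no longer called. With all 9 libraries in a single fit, 18 members rose and 1 fell with shNsd2 (22 and 2 as reported), beside 4320 of all genes (from 5836). In that fit 1 member rose and 25 fell with MCTP (0 and 19 as reported), beside 5699 of all genes (from 4305). Mcm3, Gins1, Rpa2, Pole and Gins2 lost their calls with shNsd2 under no filter, the single fit or no trend. Quantile normalization, median centring and GC correction each kept all 24 calls with shNsd2. GC correction, also with the block, gave 1 member that rose with MCTP. GC correction alone gave 1 member lower in shNsd2 than in MCTP libraries (0 as reported). Median centring moved the members' median with MCTP to -0.12 (from -0.15), and quantile normalization moved that between shNsd2 and MCTP to 0.26 (from 0.28). With the library labelled 39 as the whole MCTP group, chosen after seeing the data and assumed to vary like the controls or shNsd2 libraries, 11 members fell (from 19) beside 4628 of all genes (from 4305), and the median between treatments was 0.25 beside 6198 genes (from 5276). Fitting replicate numbers as a block, 16 members rose and 1 fell with shNsd2, beside 4515 of all genes called. In that fit 13 members fell with MCTP, beside 3399, and 29 were higher in shNsd2 than in MCTP libraries, beside 3794. No label says what the numbers mark. Libraries of the same number correlated in their deviations at means of -0.25, -0.19 and -0.36 in these comparisons. Single values ran both ways, for example -0.60, -0.57 and 0.61 for MCTP against control. Whether the numbers pair the libraries cannot be told from so few values. Leaving out each library gave 1 to 3 members that fell with shNsd2 (1 without control 2, shNsd2 1 or shNsd2 2). With MCTP it gave 0 to 2 members that rose (2 without MCTP 2), 7 to 25 that fell (9, 7 and 10 without control 1, 2 and 3, and 7 without MCTP 1) and 2046 to 7384 genes in all (from 4305; 2366, 2162 and 2456 without control 1, 2 and 3, and 2046, 7384 and 2842 without MCTP 1, 2 and 3). Between shNsd2 and MCTP it gave 0 to 2 members that were lower (2 without MCTP 2), medians from 0.26 to 0.29, and 3391 to 7781 genes in all (from 5276; 3391 without MCTP 1, 3429 without shNsd2 2 and 3420 without shNsd2 3). The causes were not tested. Sequencing depth is unknown.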

Other observations

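Genes that act before and after S phase were read in the same way. Beside 47.8% of all genes called with shNsd2 and 35.2% with MCTP, 4 of 10 genes of proliferation and mitosis were called with each: 3 rose and 1 fell with shNsd2 and 0 rose and 4 fell with MCTP. Mki67, the proliferation marker, was at 13.54, 13.37 and 13.16 in control, 13.37, 13.28 and 13.49 in shNsd2 and 12.67, 13.15 and 12.62 in MCTP libraries. The MCTP libraries lay below all others, MCTP 2 nearest to them, and shNsd2 overlapped control. Mki67 changed by -0.54 with MCTP (SE 0.15, adjusted p = 0.0285, limma) and by 0.024 with shNsd2 (adjusted p = 0.849, limma). The mitotic kinase gene Aurka rose with shNsd2 (0.31) and the cyclin gene Ccna2 fell (-0.24).

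Of 7 G1/S cyclins and inhibitors, 3 rose and 1 fell with shNsd2 and 2 rose and 2 fell with MCTP. Cdkn1a, which encodes the inhibitor p21, was at 12.38, 12.54 and 12.54 in control, 12.75, 12.71 and 12.70 in shNsd2 and 13.43, 13.29 and 13.56 in MCTP libraries. The groups were separate, with MCTP highest and control lowest. Cdkn1a rose by 0.23 with shNsd2 (SE 0.048, adjusted p = 0.00390, limma) and by 0.94 with MCTP (SE 0.08, adjusted p = 0.000237, limma). Ccne1, the cyclin that starts S phase, rose with both treatments (0.41 and 0.36), and Cdkn1b, which encodes the inhibitor p27, fell with both (-0.44 and -0.40).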
